A study of Azumapecten farreri with 9 samples.

Results

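The genes described here are the parts of the mitochondrial respiratory chain and ATP synthase in scallop hemocytes, the circulating immune cells of molluscs. They were chosen by gene description: a description had to hold the words NADH dehydrogenase, NADH-ubiquinone, succinate dehydrogenase, cytochrome b, cytochrome c oxidase or ATP synthase, and descriptions with cytochrome b5 were left out. This gave 63 of the 21617 genes of the table. By description, 25 were subunits of complex I (NADH dehydrogenase), 2 of complex II (succinate dehydrogenase), 3 of complex III (cytochrome b-c1), 4 of complex IV (cytochrome c oxidase) and 11 of complex V (ATP synthase). Another 15 were assembly factors, which help to build these complexes without being lasting parts of them. The last 3 lay outside the chain or could not be placed: the heavy and light chains of cytochrome b-245, which belong to the NADPH oxidase of phagocytes, and a gene called probable NADH dehydrogenase. The table's own KEGG annotation put 45 of the 63 in oxidative phosphorylation.

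The respiratory chain passes electrons from NADH and succinate to oxygen through complexes I to IV and pumps protons across the inner mitochondrial membrane, and ATP synthase uses the returning protons to make ATP. In animals most subunits are encoded in the nucleus and imported, while a small core is encoded by mitochondrial DNA. Assembly factors insert hemes, copper, flavin and iron-sulfur clusters and hold partly built modules. In phagocytes cytochrome b-245 also carries electrons to oxygen, but across the plasma or phagosome membrane, where it makes superoxide against microbes. The roles of single genes given below are known from yeast or vertebrates.

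RNA came from hemocytes of the Zhikong scallop, Chlamys farreri (Azumapecten farreri in the labels), in 9 poly(A) libraries of 3 groups: 3 titled LPS_T and 3 titled NOR_T, after exosomes had been injected, and 3 titled PBS, after PBS had been injected. Exosomes are vesicles that cells shed, and the series asks how they act on immunity. Titles and group labels contradict each other for the 6 exosome libraries: those titled LPS_T are labelled as normal exosomes, and those titled NOR_T as LPS stimulating exosomes, LPS being bacterial lipopolysaccharide. Groups are therefore called by title, and no difference between them is tied to LPS here. Comparing PBS with the average of the LPS_T and NOR_T groups avoids this doubt. The dose, the time after injection, the age of the animals and the source of the exosomes are not given in the labels used here. No label says whether libraries came from separate animals or from pools, so the p-values weigh differences only by how much these libraries vary, and part of that variation may be technical.

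The total of estimated counts lay between 19894628 (PBS 1) and 45831950 (PBS 3) per library, or about 5240000 to 11600000 fragments. PBS 1 stood apart, with 17.8% of its counts on scaffold38697, against 0.0318% to 0.0979% in the other 8 libraries. Hemocyte markers were present: the gene with the highest level among them, galectin-4-like, averaged 3281 CPM in LPS_T, 3271 in NOR_T and 3437 in PBS. Markers of other tissues were present as well. The 42 genes of the muscle list summed to 8537 to 9330 CPM in LPS_T, 9028 to 9571 in NOR_T and 8253 to 8891 in PBS, with LPS_T overlapping both other groups and NOR_T above PBS. Its gene of highest CPM, striated muscle myosin heavy chain, averaged 2030 CPM in LPS_T, 1941 in NOR_T and 2035 in PBS. Of the 28 tested muscle genes 7 were higher and 2 lower than in PBS in the mean of both exosome groups. That is 25% and 7.14%, beside 14.6% and 15.0% of all tested genes. The sums of the other lists did not overlap between the groups. The 86 genes of the ciliated epithelium list summed to 1267 to 1307 CPM in LPS_T, 516 to 538 in NOR_T and 733 to 926 in PBS. The 32 genes of the sperm and testis list summed to 1367 to 1512, 419 to 451 and 830 to 998 CPM in the same order. The words of the ciliated list also match genes of flagella, so both lists may mark the same cells, which was not tested. Testis-specific tubulin alpha chain (evm.TU.scaffold64139.6) made up most of the sperm and testis sums, averaging 1163 CPM in LPS_T, 295 in NOR_T and 699 in PBS. Of the 27 tested genes of that list 16 were higher and 2 lower in LPS_T than in NOR_T. That is 59.3% and 7.41%, beside 12.6% and 8.89% of all tested genes. No gene of the muscle, ciliated epithelium, and sperm and testis lists was at 0 in all libraries. CPM is the estimated count scaled to a common library size with the TMM method. In bulk RNA, fewer cells of a type and less RNA per cell cannot be told apart.

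Structural subunits were among the more abundant messages in these libraries. On the FPKM scale, which is per gene length and as deposited by the authors, the median of the mean levels over 9 libraries was 127 for the 44 nuclear subunits, above 95.2% of the 11678 genes tested, whose median was 5.02. It was 84.7 for complex I, 98.4 for complex II, 239 for complex III, 365 for complex IV and 371 for complex V, and 5.97 for the assembly factors. Within complex I the level ran from 3.69 to 242 FPKM. The lowest of these, flavoprotein 1 (evm.TU.scaffold713739.1), is a second copy of a gene that stood at 68.0 FPKM on another scaffold (evm.TU.scaffold53859.5), and how reads were split between near copies is uncertain.

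**Figure D1:**
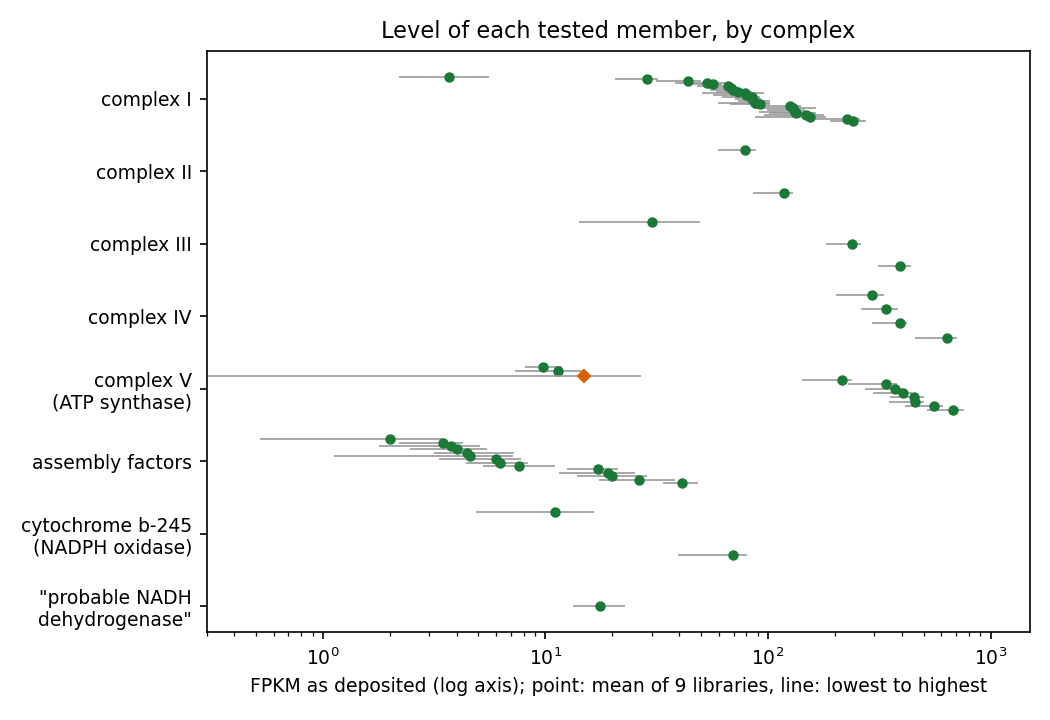
Deposited FPKM of the 62 tested members on a log axis, by complex; each point is the mean of 9 libraries and each line runs from the lowest to the highest library. Complex IV lay between 292 and 635 FPKM and most assembly factors below 10, and the diamond is the ATP synthase 6 entry, whose line is cut at the left edge because its lowest library was at 0.

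The most abundant subunits of each complex show how even these levels were. In complex I, iron-sulfur protein 4 (evm.TU.scaffold63763.47), an accessory subunit of the arm that takes up NADH, had 129.7, 142 and 121 CPM in LPS_T, 135, 155 and 129 in NOR_T, and 149, 139 and 132 in PBS. Alpha subcomplex subunit 6 (evm.TU.scaffold53465.6), another accessory subunit, had 90.7, 87.4 and 85.6 CPM in LPS_T, 78.0, 99.6 and 98.2 in NOR_T, and 80.0, 97.8 and 85.4 in PBS. The ranges of the 3 groups overlapped for both genes, with the widest spread in NOR_T.

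In complex II the cytochrome b small subunit (evm.TU.scaffold39551.65), which anchors the enzyme in the membrane, had 61.4, 64.1 and 63.6 CPM in LPS_T, 57.5, 65.4 and 64.6 in NOR_T, and 63.0, 59.8 and 62.2 in PBS. The iron-sulfur subunit (evm.TU.scaffold12123.2), which passes electrons on to ubiquinone, had 68.1, 77.0 and 63.1 CPM in LPS_T, 69.4, 74.4 and 70.2 in NOR_T, and 73.5, 69.1 and 65.5 in PBS. In complex III the Rieske subunit (evm.TU.scaffold62057.6), the iron-sulfur protein that reduces cytochrome c1, averaged 249.7 ± 22.0 CPM in LPS_T, 250.0 ± 13.6 in NOR_T and 254 ± 20.4 in PBS (SD, n = 3 each). For each of these genes the means of the groups differed by less than their SD. Subunit 2 of complex III (evm.TU.scaffold34531.101), a core protein, averaged 344 ± 27.3 CPM in LPS_T, 358 ± 16.5 in NOR_T and 344 ± 20.8 in PBS.

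In complex IV, subunit NDUFA4-like (evm.TU.scaffold18115.36), once counted as a part of complex I, had 496, 468 and 455 CPM in LPS_T, 464, 489 and 459.7 in NOR_T, and 459, 449 and 406 in PBS. Subunit 4 isoform 1 (evm.TU.scaffold47297.71), a regulatory subunit, averaged 526 ± 18.9 CPM in LPS_T, 546 ± 20.6 in NOR_T and 533 ± 26.4 in PBS. In complex V, subunit O (evm.TU.scaffold42795.5), which ties the catalytic head to the stalk, had the highest FPKM of all members, at 681 on average. It stood at 438, 464 and 446 CPM in LPS_T, 472, 512 and 483 in NOR_T, and 483, 429 and 409 in PBS. The lipid-binding protein (evm.TU.scaffold6499.23), which forms the turning ring in the membrane, had 1059, 1178 and 1066 CPM in LPS_T, 1008, 1196 and 1138 in NOR_T, and 1150, 1172 and 1052 in PBS. None of these 10 leading subunits passed the test in any comparison. Each exosome group overlapped PBS in both complex V genes, while for subunit O all NOR_T libraries lay above all LPS_T libraries.

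The first comparison asked what changed after injection of exosomes, as the mean of both exosome groups, relative to PBS. The nuclear subunits stayed close to 0: 1 of 44 rose and 0 fell in edgeR's quasi-likelihood test at a Benjamini-Hochberg adjusted p under 0.05, where 29.5% of all tested genes were called, 14.6% higher and 15.0% lower. At an unadjusted p under 0.05 the count was 6 of 44, against 4580 of 11678 genes, and DESeq2 called 2 higher and 1 lower. Their log2 changes ran from -0.37 to 0.31 with a median of 0.0158, beside 0.00433 over all tested genes. For 41 of the 44 the 95% interval of the change lay between -0.5 and 0.5, against 34.5% of all tested genes; this bound was chosen after the values were seen, and high levels give narrow intervals. The spread over all 9 libraries was small too: the median coefficient of variation of CPM was 7.19% for the 44 subunits, 25.4% for the assembly factors and 21.7% for all tested genes, whose levels are lower. Of the subunits, 2 rose when LPS_T 3, NOR_T 1, PBS 1 or PBS 2 was left out, and 1 fell when LPS_T 2 or PBS 3 was left out.

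Summed over each complex the libraries of the groups overlapped. Complex I summed to 1874 to 1989 CPM in LPS_T, 1841 to 2103 in NOR_T and 1839 to 2005 in PBS. Complex V summed to 4863 to 5404 CPM in LPS_T, 4962 to 5569 in NOR_T and 4782 to 5301 in PBS. The nuclear subunits together made up 0.871% to 0.956% of TMM-scaled counts in LPS_T, 0.884% to 0.985% in NOR_T and 0.856% to 0.943% in PBS. With library-size scaling only the median log2 change of all tested genes was 0.0978, and in limma on log2(FPKM + 1) it was 0.15. The subunits' median was 0.11 and 0.18 on these scales. The calls over all genes split into 1615 higher and 904 lower with library-size scaling and 1543 and 564 in limma, against 1702 and 1747 in the TMM-scaled test.

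The subunit that rose was beta subcomplex subunit 10-like of complex I (evm.TU.scaffold63953.14, positions 184961 to 189584, plus strand), an accessory subunit of the membrane arm. It had 86.1, 93.2 and 87.1 CPM in LPS_T, 94.8, 92.9 and 82.3 in NOR_T, and 66.3, 76.8 and 73.2 in PBS. All 6 exosome libraries lay above all 3 PBS libraries, and the log2 change was 0.31 (SE 0.07, edgeR adjusted p = 0.00325). The call held in all 20 alternatives run for this comparison, 1 of which, fitting only the groups compared, leaves it as it is. The other beta subcomplex subunits, 2, 5, 7, 9 and 11, were not called in any comparison.

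Some of the assembly factors, serving complexes I, II, IV and V, fell relative to PBS. Of 15, 14 passed the filter on low levels and were tested; 7 fell and 0 rose, where 15.0% of all tested genes were lower. Their median log2 change was -0.43, and 11 of the 14 changes were negative. The number that fell was lower when a library was left out: 4 without LPS_T 1, LPS_T 3 or PBS 3, and 3 without NOR_T 1 or PBS 1. It was also 2 when libraries were scaled by size alone and 1 in limma on log2(FPKM + 1), where the median of the list was still negative, at -0.33 and -0.24. The untested factor, a second copy of complex I assembly factor 6 (evm.TU.scaffold722285.1), had counts in PBS 2 and in no other library.

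Succinate dehydrogenase assembly factor 2 (evm.TU.scaffold57483.27, positions 538699 to 544914, minus strand), which attaches flavin to complex II, had the smallest adjusted p among them. It had 12.7, 12.2 and 12.0 CPM in LPS_T, 14.1, 16.6 and 10.1 in NOR_T, and 21.3, 21.5 and 20.7 in PBS. No exosome library reached the PBS range, and the log2 change was -0.71 (SE 0.13, edgeR adjusted p = 6.21e-04), a call that held in all 20 alternatives. The other factors of this enzyme were not called. Factor 4 (evm.TU.scaffold46769.56) had a change of 0.39, with a 95% interval of -0.0530 to 0.83, and factor 1 (evm.TU.scaffold63471.50) one of 0.26, with an interval of -0.70 to 1.23.

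Factors of cytochrome c oxidase made up 4 of the 7 that fell. The copper chaperone (evm.TU.scaffold37959.11, positions 161310 to 168045, plus strand), which hands copper on for the oxidase, had 5.60, 5.41 and 5.91 CPM in LPS_T, 5.78, 8.72 and 6.91 in NOR_T, and 9.59, 12.0 and 9.99 in PBS. No exosome library reached the PBS range, and the log2 change was -0.73 (SE 0.15, edgeR adjusted p = 0.00195), a call lost in limma on FPKM. This gene overlaps transcription initiation factor TFIID subunit 13-like on the other strand by 617 bases. That gene was lower as well (-0.36, edgeR adjusted p = 0.00628), and since the kit does not mark strand, reads from the overlap cannot be told apart.

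COX11 (evm.TU.scaffold41405.64), which inserts copper into the oxidase, was the most abundant assembly factor. It had 64.1, 64.6 and 58.9 CPM in LPS_T, 64.2, 72.8 and 70.2 in NOR_T, and 80.1, 78.9 and 78.9 in PBS. Its change was small, -0.27 (SE 0.06, edgeR adjusted p = 0.00449), with no overlap between exosome and PBS libraries; the call did not hold in limma on FPKM or when libraries were scaled by size alone. COX15 (evm.TU.scaffold10271.30), which makes the oxidase's heme, had 5.32, 7.11 and 8.89 CPM in LPS_T, 5.66, 8.35 and 9.96 in NOR_T, and 14.7, 10.3 and 9.90 in PBS. NOR_T 3 lay just inside the PBS range, and the change was -0.61 (SE 0.20, edgeR adjusted p = 0.0300). Cytochrome c oxidase assembly factor 5-like (evm.TU.scaffold19831.10) averaged 5.07 ± 0.985 CPM in LPS_T, 5.75 ± 0.743 in NOR_T and 7.68 ± 0.723 in PBS (SD, n = 3 each), a change of -0.51 (edgeR adjusted p = 0.0344).

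The remaining factors that fell serve complexes I and V. Complex I assembly factor 3 (evm.TU.scaffold43873.45) had 7.83, 6.95 and 5.64 CPM in LPS_T, 8.22, 9.32 and 7.59 in NOR_T, and 11.2, 9.85 and 9.69 in PBS, with a change of -0.44 (edgeR adjusted p = 0.0336). ATP synthase F1 complex assembly factor 2 (evm.TU.scaffold34531.114), a chaperone of the alpha subunit, averaged 4.32 ± 1.41 CPM in LPS_T, 5.06 ± 0.894 in NOR_T and 7.36 ± 2.10 in PBS, with a change of -0.64 (edgeR adjusted p = 0.0475). In both genes all exosome libraries lay below all PBS libraries. The calls of COX15, assembly factor 5, complex I factor 3 and the F1 factor 2 were the least firm: each was lost in 7 to 12 of the alternatives tried, and all 4 were lost without NOR_T 1 and without PBS 1.

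**Figure D2:**
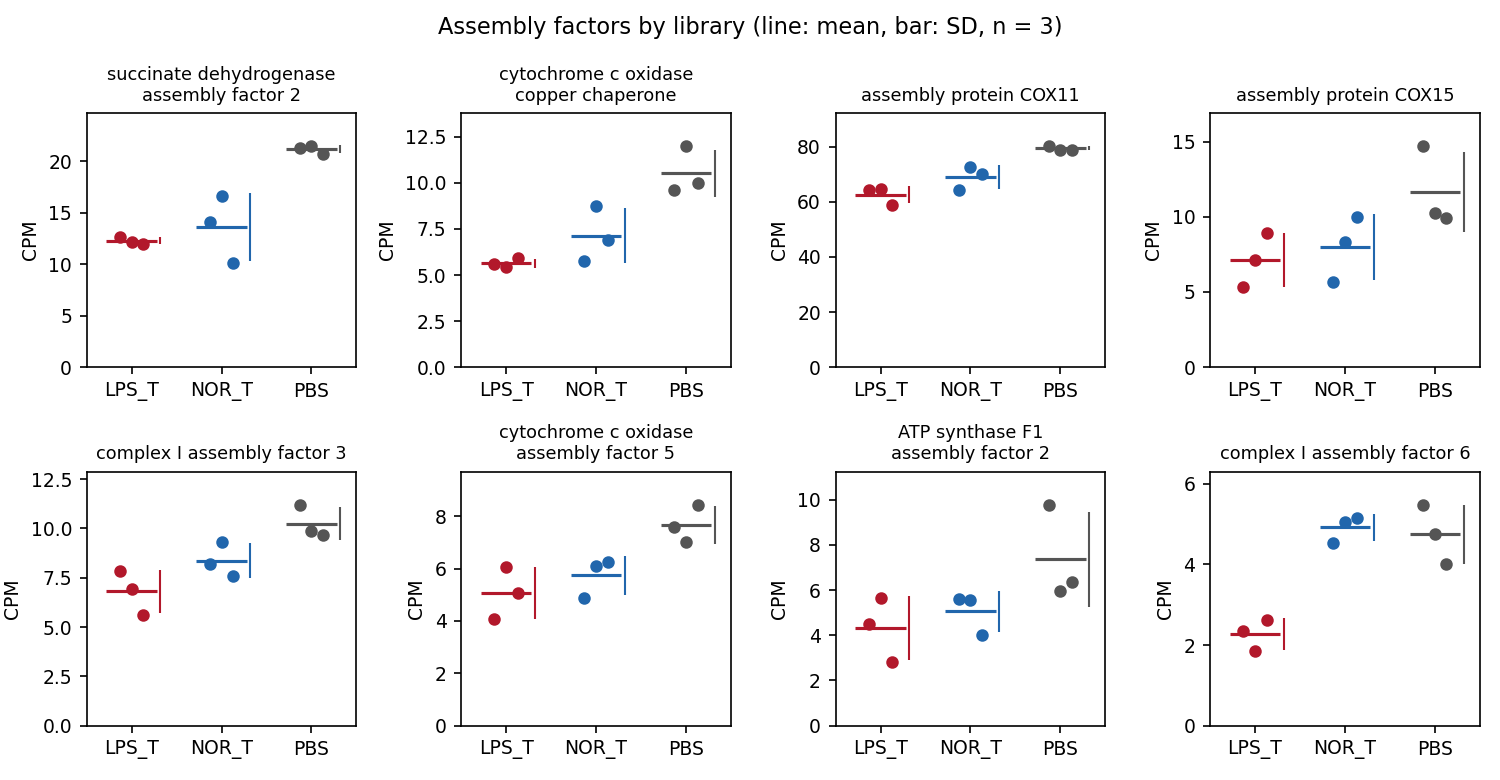
CPM (vertical axes, from 0) of 8 assembly factors in the LPS_T, NOR_T and PBS libraries; each point is a library, the line the mean and the bar 1 SD (n = 3). The first 7 fell relative to PBS in the mean of both exosome groups, and complex I assembly factor 6 was at 1.84 to 2.61 CPM in LPS_T, below every NOR_T and PBS library.

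Summed CPM of the 15 assembly factors was 137 to 145 in LPS_T, 156 to 175 in NOR_T and 186 to 197 in PBS, so that the 3 groups did not overlap. COX11, the most abundant factor, made up a large part of each sum. Of the 14 tested factors, 7 were not called in the mean of both exosome groups. The 49 hemocyte marker genes summed in the same order, to 5971 to 6378 CPM in LPS_T, 6603 to 6713 in NOR_T and 7360 to 7634 in PBS. Laccase-3-like, 1 of them, stood at 1671 ± 44.8 CPM in LPS_T, 2227 ± 46.0 in NOR_T and 3042 ± 134 in PBS. Its means differed between the groups by about as much as the sums did. The sums therefore do not show a fall of the whole list. Among the 12 tested hemocyte markers 5 were higher and 3 lower than in PBS in the mean of both exosome groups. That is 41.7% and 25%, beside 14.6% and 15.0% of all tested genes. The median log2 change of the 12 was 0.0440. No hemocyte marker gene was at 0 in all libraries. The part of these markers in the lower assembly factors was not tested.

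**Figure D3:**
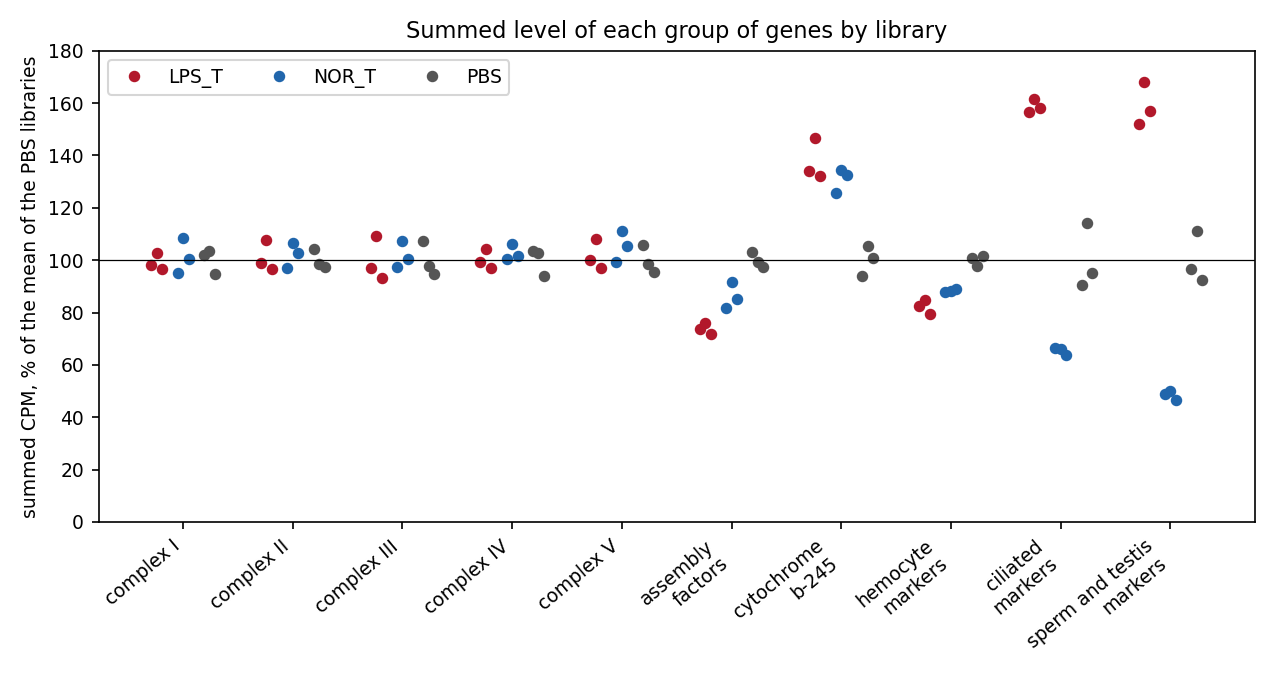
Summed CPM of each group of genes in each library, as a percentage of the mean of the 3 PBS libraries (the line at 100). Complexes I to V lay between 93.3% and 111%, the assembly factors between 71.8% and 76.1% in LPS_T and between 81.9% and 91.8% in NOR_T, and the ciliated and sperm markers were high in LPS_T and low in NOR_T.

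The cytochrome b-245 chains rose. The light chain (evm.TU.scaffold725571.1, positions 486 to 3201, minus strand), the small membrane partner that holds the oxidase, had 172, 184 and 161 CPM in LPS_T, 168, 182 and 177 in NOR_T, and 128, 139 and 135 in PBS. The heavy chain (evm.TU.scaffold64607.61, positions 1405430 to 1459739, plus strand), which carries the hemes and the flavin, had 39.9, 48.5 and 47.7 CPM in LPS_T, 31.4, 30.7 and 33.0 in NOR_T, and 20.9, 27.4 and 24.1 in PBS. For both genes every exosome library lay above every PBS library. The log2 changes were 0.37 for the light chain (SE 0.06, edgeR adjusted p = 1.22e-04) and 0.64 for the heavy chain (SE 0.10, edgeR adjusted p = 1.56e-04), and both calls held in all 20 alternatives.

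Other oxidases of that family were listed after the values of cytochrome b-245 had been seen, and 3 of their 10 genes were tested. In edgeR 0 were called in the mean of both exosome groups, and 0 had an unadjusted p under 0.05. Dual oxidase 2-like (evm.TU.scaffold15837.2), a related membrane oxidase, was far more abundant per length than the heavy chain, at 659 against 11.1 FPKM. It averaged 5419 ± 66.5 CPM in LPS_T, 4430 ± 157 in NOR_T and 4620 ± 164 in PBS, a difference of 0.08 for both exosome groups together. Neutrophil cytosol factor 2-like (evm.TU.scaffold44307.17), a soluble activator of the phagocyte oxidase, had a difference of -0.20.

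The gene described as probable NADH dehydrogenase (evm.TU.scaffold45501.28) had 24.2, 30.1 and 25.2 CPM in LPS_T, 27.9, 28.2 and 28.5 in NOR_T, and 31.1, 36.6 and 33.3 in PBS. It fell by 0.30 on the log2 scale (SE 0.09, edgeR adjusted p = 0.0201), and the exosome and PBS libraries did not overlap. The call was lost without PBS 2, in limma, and when libraries were scaled by size alone. The gene overlaps Poly [ADP-ribose] polymerase 4 on the other strand by 29 bases.

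Of mitochondrial origin by description there was 1 member, so nuclear and mitochondrial genes can be set side by side only through that entry. It is called ATP synthase 6 (mitochondrion), the proton channel of ATP synthase, and its description names Homo sapiens as the species matched. It is the only gene on its scaffold (evm.TU.scaffold716305.1, positions 525 to 815, plus strand). It had 3.38, 8.11 and 5.96 CPM in LPS_T, 7.48, 6.84 and 5.40 in NOR_T, and 0, 1.81 and 0.898 in PBS. These correspond to about 37.0, 88.2 and 68.4 fragments in LPS_T, 79.6, 54.8 and 52.9 in NOR_T, and 0, 19.5 and 10.7 in PBS. A count of 0 in PBS 1 allows a level of up to 0.710 CPM, taking 3 fragments as the floor, for counting error only.

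The log2 change of this entry was 2.60 (SE 0.49, edgeR adjusted p = 8.38e-04), the highest among the members, and every exosome library lay above every PBS library. Another 2 entries of the table were described from Homo sapiens, and 1 of these was tested. That entry, EEF1A1 protein (evm.TU.scaffold24113.1), a translation elongation factor, had 5.75, 15.3 and 13.3 CPM in LPS_T, 13.4, 11.5 and 8.99 in NOR_T, and 0, 3.49 and 3.64 in PBS. Both entries were thus at 0 in PBS 1 and lowest among the exosome libraries in LPS_T 1, and EEF1A1 changed by 2.11 (edgeR adjusted p = 0.00402). The 10 nuclear entries placed in ATP synthase by description had changes of -0.33 to 0.18 beside it, and none of them was called. The lowest was ATP synthase subunit s-like protein (evm.TU.scaffold42417.2), and that it is a subunit of this enzyme rests on its description alone. KEGG put 9 of the 11 complex V entries in oxidative phosphorylation. Whether the entry is a scallop message was not tested.

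**Figure D4:**
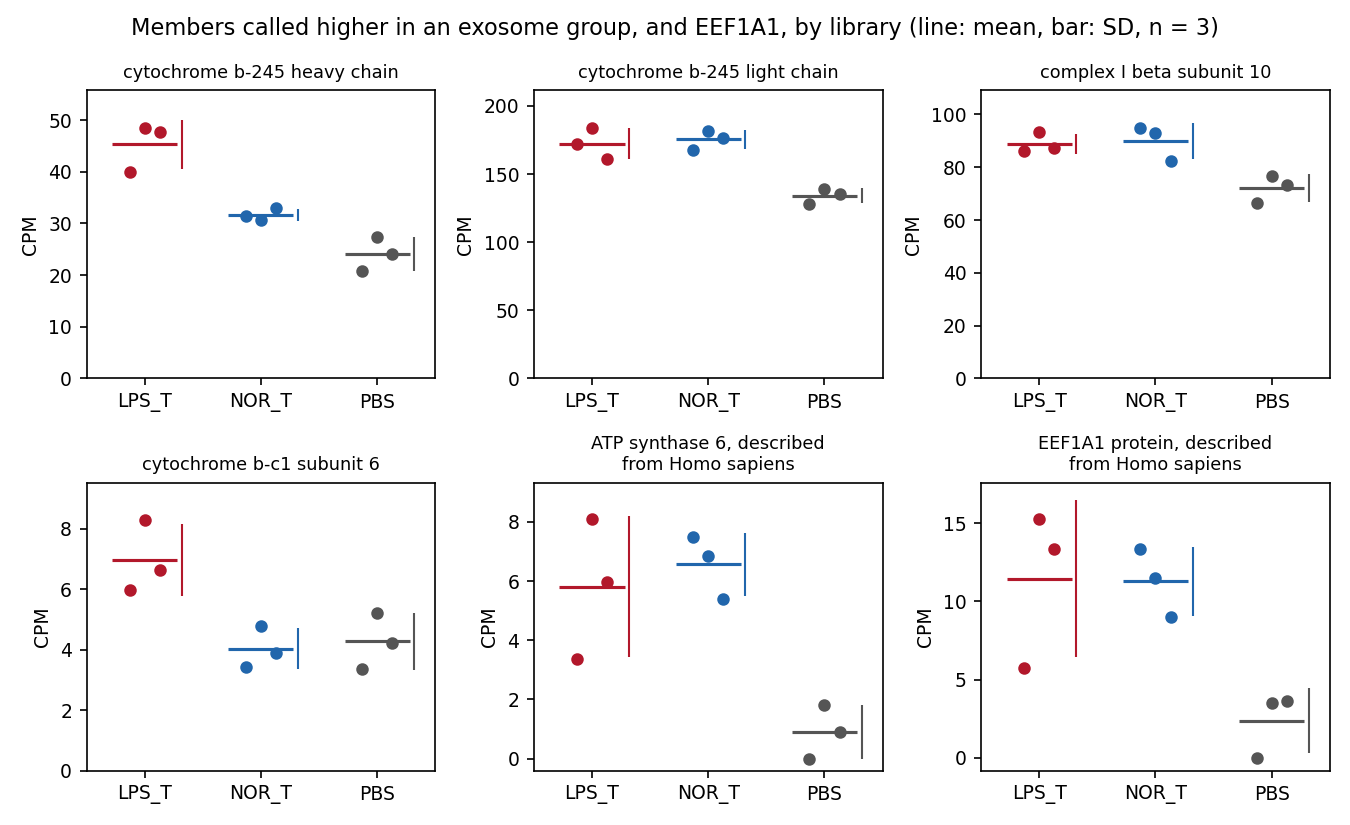
CPM (vertical axes) in the LPS_T, NOR_T and PBS libraries for the members called higher in at least 1 exosome group other than ATP synthase subunit b, and for EEF1A1 protein; each point is a library, the line the mean and the bar 1 SD (n = 3). In the ATP synthase 6 and EEF1A1 entries, both described from Homo sapiens, PBS 1 was at 0; cytochrome b-c1 subunit 6 had 5.96 to 8.27 CPM in LPS_T, 3.44 to 4.77 in NOR_T and 3.36 to 5.23 in PBS.

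Each exosome group was then set against PBS by itself; the groups share the PBS libraries. In LPS_T, 33.0% of all tested genes differed from PBS, 17.9% higher and 15.2% lower, and of the nuclear subunits 2 of 44 rose and 0 fell, with a median of 0.00115. In NOR_T, 24.9% of all genes differed, 11.4% higher and 13.5% lower, and again 2 of 44 rose and 0 fell, with a median of 0.0359. At an unadjusted p under 0.05 the counts of subunits were 4 in LPS_T and 6 in NOR_T, and DESeq2 called 2 higher and 0 lower in each. The 95% interval lay between -0.5 and 0.5 for 41 subunits in LPS_T and 40 in NOR_T, against 25.8% and 30.6% of all tested genes. Without NOR_T 1 there were 3 that rose in each comparison. In LPS_T it was 1 without LPS_T 2, LPS_T 3, PBS 1 or PBS 3, with 1 lower without LPS_T 2, and 1 in limma. In NOR_T it was 3 without PBS 1, 1 without NOR_T 2 or PBS 3, 1 when libraries were scaled by size alone and 0 in limma. The calls over all genes split into 1883 higher and 584 lower in LPS_T and 778 and 565 in NOR_T in limma on log2(FPKM + 1), against 2085 and 1770 and against 1331 and 1572 in the TMM-scaled test.

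Beta subcomplex subunit 10 rose in both groups, by 0.30 in LPS_T (edgeR adjusted p = 0.00858) and by 0.32 in NOR_T (edgeR adjusted p = 0.00772). Both calls were lost in limma, with adjusted p up to 0.0702 in LPS_T and 0.0884 to 0.1001 in NOR_T, and the call in NOR_T also when libraries were scaled by size alone. The other subunit that rose in LPS_T was cytochrome b-c1 subunit 6 (evm.TU.scaffold725165.1), the hinge protein of complex III. It had 5.96, 8.27 and 6.62 CPM in LPS_T, 3.44, 4.77 and 3.89 in NOR_T, and 3.36, 5.23 and 4.23 in PBS, a change of 0.68 in LPS_T (SE 0.23, edgeR adjusted p = 0.0310) and -0.10 in NOR_T. The gene covers 162 bases of a scaffold without another gene, and the call in LPS_T was lost when LPS_T 2, LPS_T 3, PBS 1 or PBS 3 was left out. In NOR_T it was ATP synthase subunit b (evm.TU.scaffold2555.11), a part of the stalk, with 403, 414 and 376 CPM in LPS_T, 427, 461 and 423 in NOR_T, and 383, 396 and 380.4 in PBS. Its change was 0.18 (SE 0.05, edgeR adjusted p = 0.0247), and the call was lost without NOR_T 2, PBS 1 or PBS 3, and on the unscaled values.

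**Figure D5:**
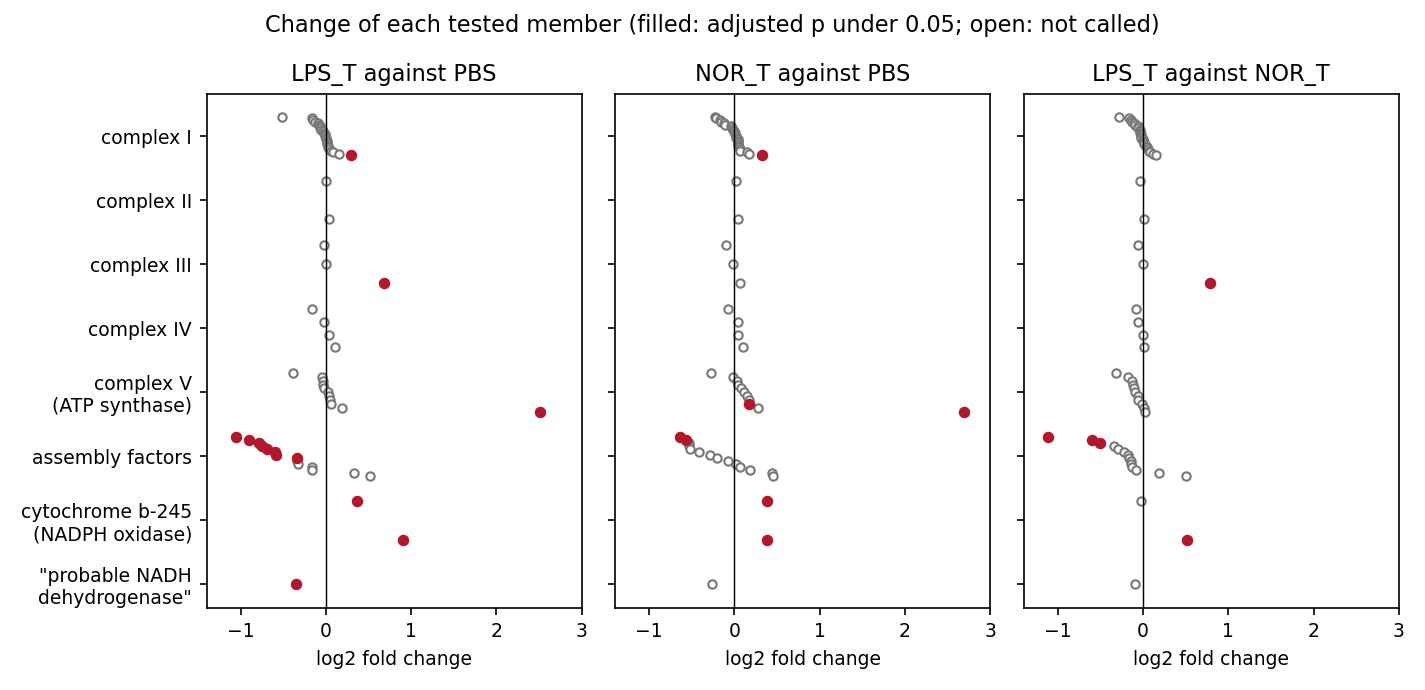
Log2 fold change (horizontal axes) of the 62 tested members, by complex, in LPS_T against PBS, NOR_T against PBS and LPS_T against NOR_T; filled points have an edgeR adjusted p under 0.05 and open points were not called. Most subunits of complexes I to V lie near 0; ATP synthase 6 lies at 2.51 and 2.69 against PBS, cytochrome b-c1 subunit 6 at 0.68 in LPS_T against PBS, and the called assembly factors lie at negative values.

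Of the 14 tested assembly factors, 8 fell and 0 rose in LPS_T, with a median of -0.46 and 12 negative changes. In NOR_T 2 fell and 0 rose, with a median of -0.24 and 9 negative changes. The share that fell was 57.1% in LPS_T, beside 15.2% of all tested genes. In NOR_T it was 14.3%, near the 13.5% of all tested genes. The LPS_T count was 5 without LPS_T 1 or LPS_T 3, 3 when libraries were scaled by size alone and 2 in limma on log2(FPKM + 1); the NOR_T count was 1 without NOR_T 1, NOR_T 3, PBS 2 or PBS 3, with 1 factor higher in the last case, 1 when libraries were scaled by size alone and 0 in limma. The list's NOR_T median in limma on log2(FPKM + 1) was -0.0891, beside 0.12 for all tested genes. Succinate dehydrogenase assembly factor 2 and the copper chaperone fell in both groups: by 0.78 and 0.90 on the log2 scale in LPS_T, and by 0.64 and 0.57 in NOR_T, where the chaperone's edgeR adjusted p was 0.0326. The chaperone's call in NOR_T was lost in 9 of 19 alternatives, among them those without NOR_T 1, NOR_T 3, PBS 2 or PBS 3 (adjusted p up to 0.301), and its call in LPS_T in limma. The call of succinate dehydrogenase assembly factor 2 in NOR_T was lost in limma (adjusted p up to 0.114). In LPS_T the others that fell were COX11 (-0.34), complex I assembly factors 3 (-0.59) and 6 (-1.05), cytochrome c oxidase assembly factor 5 (-0.60), COX15 (-0.70) and F1 complex assembly factor 2 (-0.75). Of these, the call of complex I assembly factor 6 held in all 19 alternatives that tested it, and those of the other 5 were lost in 3 to 9 alternatives each.

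Cytochrome b-245 rose in both groups. The heavy chain changed by 0.90 in LPS_T (SE 0.11, edgeR adjusted p = 1.56e-05) and by 0.39 in NOR_T (SE 0.11, edgeR adjusted p = 0.0202), a call lost without NOR_T 3, PBS 1 or PBS 3, in limma, and with library-size scaling only. The light chain changed by 0.36 in LPS_T and 0.39 in NOR_T (edgeR adjusted p = 4.43e-04 and 3.86e-04). ATP synthase 6 was higher in both, by 2.51 and 2.69. Dual oxidase 2-like, not called in the mean of both groups, was higher in LPS_T (0.23, edgeR adjusted p = 0.00422) and not called in NOR_T (-0.06); neutrophil cytosol factor 2-like was lower in LPS_T (-0.42, edgeR adjusted p = 0.0430).

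The exosome groups were also compared with each other, which is the test of a difference between them; 21.5% of all tested genes differed, 12.6% higher and 8.89% lower in LPS_T. Of the nuclear subunits 1 of 44 was higher and 0 lower, with a median of -0.0310, and 2 had an unadjusted p under 0.05; DESeq2 also called 1 higher. The 95% interval lay between -0.5 and 0.5 for 41 of the 44, against 34.0% of all tested genes. The subunit was cytochrome b-c1 subunit 6, at 0.79 (SE 0.23, edgeR adjusted p = 0.0206). The call was lost without LPS_T 2, NOR_T 1 or NOR_T 3, and in limma on log2(FPKM + 0.1). Without PBS 1 another 2 subunits were lower. With library-size scaling only, the calls over all genes split into 1223 higher and 491 lower, against 1471 and 1038 in the TMM-scaled test.

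Of the 14 assembly factors 12 had negative changes between the exosome groups, with a median of -0.17. Lower in LPS_T than in NOR_T were 3 (21.4%), and 0 were higher, beside 8.89% and 12.6% of all tested genes. The count was 1 without LPS_T 1, LPS_T 3 or NOR_T 2, in limma, and with library-size scaling only, and 0 where an FPKM of at least 5 was required. Complex I assembly factor 6 (evm.TU.scaffold62123.11, positions 144213 to 150613, minus strand) had 2.34, 1.84 and 2.61 CPM in LPS_T and 4.54, 5.05 and 5.16 in NOR_T, against 5.48, 4.74 and 4.00 in PBS. LPS_T lay below all other libraries, and the difference from NOR_T was -1.11 (SE 0.24, edgeR adjusted p = 0.00271); NOR_T and PBS overlapped. Complex I assembly factor 4 (evm.TU.scaffold42713.7) had 7.11, 7.66 and 6.03 CPM in LPS_T and 10.3, 11.5 and 9.78 in NOR_T, a difference of -0.60 (SE 0.17, edgeR adjusted p = 0.0203), a call lost without LPS_T 1, LPS_T 3 or NOR_T 2, in limma, and when libraries were scaled by size alone. PBS, at 7.22, 6.67 and 9.26, lay nearer to LPS_T.

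ATP synthase F1 complex assembly factor 1 (evm.TU.scaffold21507.6), a chaperone of the beta subunit, had 9.94, 7.56 and 9.26 CPM in LPS_T and 13.9, 14.5 and 9.67 in NOR_T. The groups overlapped, since NOR_T 3 lay below LPS_T 1, and the difference was -0.51 (SE 0.17, edgeR adjusted p = 0.0476). This call was lost in 13 of 20 alternatives, among them the replicate block, voom weights and every fit with a library left out except those without NOR_T 3 or PBS 1 (adjusted p up to 0.241). The heavy chain of cytochrome b-245 was higher in LPS_T than in NOR_T by 0.52 (SE 0.11, edgeR adjusted p = 0.00279), without overlap, a call lost in limma. The light chain differed by -0.0249, with a 95% interval of -0.16 to 0.11. For succinate dehydrogenase assembly factor 2 and the copper chaperone the differences between the exosome groups were -0.15 (95% interval -0.47 to 0.18) and -0.34 (-0.73 to 0.0549), and neither was called. These differences stood beside the ciliated and sperm marker sums given above, which were higher in LPS_T than in NOR_T; their part in them was not tested.

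Genes of the same pathway whose descriptions lack the chosen words were looked at next. Of 17 tested electron carriers and other subunits, 2 rose and 2 fell in the mean of both exosome groups, 11.8% in each direction beside 14.6% and 15.0% of all tested genes, with a median of 0.0421; the list also took in a few genes only by their wording. Mitochondrial glycerol-3-phosphate dehydrogenase-like (evm.TU.scaffold46905.12), which feeds electrons to ubiquinone, averaged 58.9 ± 4.53 CPM in LPS_T, 47.5 ± 5.37 in NOR_T and 39.2 ± 2.75 in PBS, and rose by 0.43 (edgeR adjusted p = 0.00149). Electron transfer flavoprotein subunit beta-like (evm.TU.scaffold22217.9), which brings in electrons from fatty acid oxidation, rose by 0.33 (edgeR adjusted p = 0.0102). The 2 that fell were electron transfer flavoprotein regulatory factor 1-like (evm.TU.scaffold15949.15) at -0.68 (edgeR adjusted p = 0.0234) and ubiquinone biosynthesis O-methyltransferase (evm.TU.scaffold63483.6) at -0.52 (edgeR adjusted p = 0.0245). Not called were cytochrome c (evm.TU.scaffold60561.1) at -0.10, cytochrome c1 (evm.TU.scaffold2707.5) at 0.09 and alternative oxidase (evm.TU.scaffold18115.1), a bypass of complexes III and IV, at 0.02. The membrane anchor of complex II called cytochrome b560 (evm.TU.scaffold47513.3), left out by the words cytochrome b5, had a difference of -0.21 (edgeR adjusted p = 0.0667). In LPS_T alone, at 53.4 ± 4.23 CPM against 64.6 ± 5.72 in PBS, it fell by 0.27 on the log2 scale (edgeR adjusted p = 0.0380), and it is not among the 44 subunits counted above.

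Of 8 further tested assembly factors 1 fell: surfeit locus protein 1-like (evm.TU.scaffold7241.4), a factor of cytochrome c oxidase, at 3.20 ± 0.346 CPM in LPS_T, 3.79 ± 0.948 in NOR_T and 5.81 ± 1.53 in PBS (-0.72, edgeR adjusted p = 0.0214). That is 12.5% of them, beside 15.0% of all tested genes. A second, more abundant entry called surfeit locus protein 1-like (evm.TU.scaffold38447.1) was not called (-0.07, edgeR adjusted p = 0.819). It averaged 10.8 ± 3.86 CPM in LPS_T, 8.66 ± 0.853 in NOR_T and 10.2 ± 1.39 in PBS. The median of these 8 was -0.0280, beside -0.43 for the 14 members. Of 5 tested genes of ADP, ATP and phosphate exchange 1 rose, the mitochondrial phosphate carrier (evm.TU.scaffold9441.5), by 0.13 (edgeR adjusted p = 0.0493); 14.6% of all tested genes rose. The ADP, ATP carrier (evm.TU.scaffold50135.25), which trades ATP for ADP across the inner membrane, averaged 1790 ± 55.7 CPM in LPS_T, 1969 ± 115 in NOR_T and 1741 ± 167 in PBS and was not called.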

How the data were processed

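Poly(A) RNA of 9 libraries was sequenced paired-end after a library preparation (TruSeq v2) that keeps no strand, per the labels' protocols. HISAT, StringTie and edgeR are named, per the submitters' processing notes, without versions; the build, the annotation and the options used for counting were not given in the sources used here. Deposited were the authors' estimated counts (expected counts), rounded here to whole numbers, and their FPKM, per the file headers. One fragment was worth about 3.78 to 3.98 counts.

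Groups came from titles. edgeR 4.0.16 was run on all 9 libraries (TMM scaling; a quasi-likelihood test on group means) over the 11678 genes that reached 1 FPKM in 3 or more libraries, with Benjamini-Hochberg adjustment over all of them and a threshold of 0.05. SE was taken from each log2 change and its F statistic. Depth was 19894628 to 45831950 counts; floors cover counting error only. Alternatives, 20 in all, were other scalings and filters, DESeq2 1.42.0, limma 3.58.1 on log2(FPKM + 1) and log2(FPKM + 0.1), voom weights, a replicate block, counts divided by counts per fragment, only the groups compared, and each library left out. edgeR was tested on simulated data. R 4.3.3 and matplotlib 3.10.9 were used.

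The text names each member of mitochondrial origin, the 2 of highest FPKM in each complex and up to 8 called members per comparison and direction with the smallest adjusted p; other genes were chosen after their values were seen. Members and lists were chosen with earlier results of these data known. Libraries within groups differed by 2.02 to 7.56 times sampling noise, so none was counted as a duplicate. Estimated counts can be split between near copies, and overlapping genes cannot be separated without strand.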

Additional observations from a re-analysis of the deposited data

Results flagged for a closer look

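The exosome groups differed from each other in 5 members by edgeR's test of LPS_T against NOR_T: complex I assembly factor 6 at -1.11, complex I assembly factor 4 at -0.60, F1 complex assembly factor 1 at -0.51, the cytochrome b-245 heavy chain at 0.52 and cytochrome b-c1 subunit 6 at 0.79 on the log2 scale. Of these, only the call of complex I assembly factor 6 held in every alternative that tested it (19 of 19, adjusted p up to 0.0157). Which of these groups received exosomes from stimulated cells cannot be told apart from the labels.

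A gene outside the members, EEF1A1 protein, also described from Homo sapiens, was higher in the exosome groups than in PBS by 2.11 on the log2 scale. Whether these 2 entries come from scallop RNA was not tested.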

How the results depend on the processing

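No value changed direction past the threshold in any alternative run. Of the called named members, 5 of 12 kept their call in all alternatives for the mean of both exosome groups, 5 of 14 in LPS_T against PBS, 1 of 7 in NOR_T against PBS and 1 of 5 between the exosome groups. The count of members lower than PBS in the mean of both groups, 8, was 2 with library-size scaling only and 1 and 1 in limma with pseudocounts of 1 and 0.1. In LPS_T it was 9, and 3, 2 and 2 in the same settings. In NOR_T it was 2, and 1, 0 and 0 in these, 1 with no filter and 1 with only the groups compared. Members higher in NOR_T, 5, were 3, 2 and 1. Between the exosome groups, 2 members were higher, and 1 and 0 in limma, and 3 lower, and 1, 1 and 1 in the same 3 settings and 0 with an FPKM of at least 5, where 9 assembly factors were tested. All genes called in limma with pseudocounts of 1 and 0.1 were 2107 and 1841 in the mean of both groups, against 3449; 2467 and 2172 in LPS_T, against 3855; 1343 and 1212 in NOR_T, against 2903; and 1413 and 1211 between the exosome groups, against 2509. The cause of these lower counts was not tested.

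With each library left out in turn, members higher and lower were 4 to 5 and 4 to 8 in the mean of both groups, 4 to 6 and 5 to 9 in LPS_T, 4 to 6 and 1 to 2 in NOR_T, and 1 to 2 and 1 to 5 between the exosome groups; all genes called were 2889 to 3289, 3110 to 3861, 2256 to 2814 and 1963 to 3099.

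Same-numbered libraries correlated by -0.0248 to 0.0797 in their deviations from group means, and 5 of 9 correlated best with their own number. With so few libraries per group, these values cannot settle whether replicate numbers pair the libraries. With the replicate block, the counts of members higher and lower were 4 and 8 in the mean of both groups, 5 and 9 in LPS_T, 5 and 2 in NOR_T, and 2 and 2 between the exosome groups. What depth limits in single classes was not tested; the assembly factors had a median of 5.97 FPKM.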

Other observations

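Genes that serve the same organelle without being part of the chain were listed with the results above known. The mitochondrial ribosome makes the subunits encoded by mitochondrial DNA. Of 55 of its proteins tested in edgeR, 2 rose and 9 fell relative to PBS in the mean of both exosome groups. That is 3.64% and 16.4%, beside 14.6% and 15.0% of all tested genes, so the share that fell was near that of all genes. The median log2 change of the 55 was -0.0853. Large subunit protein L35 (evm.TU.scaffold60231.9) averaged 11.0 ± 1.59 CPM in LPS_T, 12.9 ± 0.509 in NOR_T and 17.7 ± 1.60 in PBS (SD, n = 3 each) and fell by 0.57 on the log2 scale (edgeR adjusted p = 0.00153), while small subunit protein S28 (evm.TU.scaffold63447.2) rose by 0.46 (edgeR adjusted p = 0.0105).

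Of 27 tested genes of import, protein quality control and mitochondrial DNA, 3 rose and 5 fell in the mean of both exosome groups. That is 11.1% and 18.5%, near the 14.6% and 15.0% of all tested genes. Those that fell included the import receptors TOM20 (evm.TU.scaffold17271.6, -0.32) and TOM22 (evm.TU.scaffold64095.10, -0.35), which bind proteins at the outer membrane, and prohibitin 2 (evm.TU.scaffold61755.2, -0.32), a scaffold of the inner membrane. The fusion proteins dynamin-like 120 kDa protein (evm.TU.scaffold35757.1, 0.52) and mitofusin-2 (evm.TU.scaffold60463.12, 0.38) rose. Between the exosome groups 7 of the 27 were lower in LPS_T than in NOR_T and 0 higher, where 8.89% and 12.6% of all tested genes were; 10 had an unadjusted p under 0.05, and only edgeR was run on this list. Of 13 subunits of the V-type proton ATPase, which acidifies vesicles and shares the KEGG pathway, 1 rose and 4 fell against PBS in the mean of both groups, 7.69% and 30.8% beside 14.6% and 15.0% of all tested genes.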
